A study of Homo sapiens with 18 samples.

Results

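The genes described here are the human histone genes, chosen by name: every gene on the array whose platform symbol began with HIST1, HIST2 or HIST3, or in current naming with H1-, H2AC, H2BC, H3C or H4C. They gave 79 features among 19974 in all, of which 61 were read by a probe set of their own and 18 by a probe set that the platform annotation shares among several genes. By class there were 10 H1, 15 H2A, 22 H2B, 13 H3 and 15 H4 features, and 4 shared between classes or with FCGR1BP, which is not a histone gene. Of the 79, 73 passed the filter on low values and were tested; H1-6, H2AC1, H2BC1, the pseudogene H2BC19P, H4C7 and a probe set shared by FCGR1BP and H2BC18 did not pass.

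Nucleosomes wrap DNA around an octamer of H2A, H2B, H3 and H4, and the linker histone H1 binds where the DNA enters and leaves. Most of these genes are replication-dependent: they sit in clusters, have no introns, are transcribed in S phase, and their mRNAs end in a stem-loop in place of a poly(A) tail. Some of them are also known to give polyadenylated transcripts, and a few members are germline genes that are active mainly in testis or oocytes.

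The samples were H1 human embryonic stem cells, an established line, on 18 Affymetrix Human Gene 1.0 ST arrays in 6 groups of 3. The pluripotent state was a feeder-free culture (Matrigel coating, mTeSR1 as medium). Embryoid bodies, which are differentiating aggregates, were 6 days old and came from AggreWell plates with APEL as medium. In each state, cells were untransduced, transduced with a control shRNA lentivirus, or transduced with a lentivirus carrying an shRNA against KBTBD8, an adaptor of the CUL3 ubiquitin ligase. The series text calls the 3 samples of a group independent without naming separate cultures, so p-values measure the spread between these samples. The labels do not say whether untransduced and transduced samples were cultured or run together. Array medians were 5.85 to 5.95 on untransduced and 5.97 to 6.12 on transduced arrays. Differences between untransduced and transduced cells therefore cannot be told apart from a difference in culture or array run. RNA was labelled with a NuGEN method whose priming is not given in the sources used here, so how well transcripts without a poly(A) tail were captured is not known. Values are log2 intensities, and levels are never compared between probe sets.

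Both KBTBD8 shRNA arrays numbered 2 went against their labels. PAX6, a neural and eye field gene, read 4.42 and 4.49 on the pluripotent KBTBD8 shRNA arrays 1 and 3 but 8.90 on array 2, and in the embryoid bodies 9.04 and 9.09 against 4.35 on array 2. PODXL, a pluripotency marker, read 12.10 and 12.16 against 10.35, and in embryoid bodies 10.21 and 10.47 against 12.07. These 2 arrays were read apart, and the main values rest on the other 16 arrays, which leaves 2 arrays in each KBTBD8 shRNA group. KBTBD8 itself read 6.39, 7.09 and 7.03 in pluripotent control shRNA cells and 5.13 and 4.96 with the KBTBD8 shRNA. In embryoid bodies KBTBD8 read 4.43, 4.79 and 5.04 with the control shRNA and 4.86 and 4.66 with the KBTBD8 shRNA, so those groups overlapped. Markers of the labelled states were as follows in untransduced cells: PAX6 rose from 4.33 to 4.72 in pluripotent cells to 10.26 to 10.40 in embryoid bodies, and PODXL went from 11.64 to 11.92 down to 7.37 to 7.51.

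Histone genes are often paired head to head, an H2A gene and an H2B gene sharing the DNA between their starts. The stretches upstream of 5 genes that the results turn on are printed below to show what those genes share; they were chosen after the values were seen, come from RefSeq on GRCh38.p14, and run 5′ to 3′ on the minus strand up to the base before the gene's start. Capitals mark 3 motifs on either strand, and overlapping matches run together. The TATA box, which positions transcription, was searched as TATAAA. The second motif, searched as CCAAT, is the site of the factor NF-Y. The octamer, bound by POU factors, was searched as ATTTGCAT. The coordinates are chr6:27146859-27147105 for H2BC12, chr1:149886683-149886917 for H2BC21, chr6:27132796-27133042 for H2BC11, chr6:27807930-27808172 for H2BC13 with its neighbour H2AC13, and chr6:26032100-26032299 for H3C2. The stretches of H2BC21, H2BC11 and H2BC13 fill the gap to the neighbouring H2A gene. That of H2BC12 fills the gap to the start of its neighbour H2AC12 in the RefSeq gene record.
H2BC12: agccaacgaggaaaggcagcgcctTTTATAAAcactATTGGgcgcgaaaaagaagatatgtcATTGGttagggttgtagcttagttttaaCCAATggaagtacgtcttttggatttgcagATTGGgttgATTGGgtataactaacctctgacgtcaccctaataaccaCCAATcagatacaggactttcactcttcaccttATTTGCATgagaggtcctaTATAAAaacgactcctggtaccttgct
H2BC11: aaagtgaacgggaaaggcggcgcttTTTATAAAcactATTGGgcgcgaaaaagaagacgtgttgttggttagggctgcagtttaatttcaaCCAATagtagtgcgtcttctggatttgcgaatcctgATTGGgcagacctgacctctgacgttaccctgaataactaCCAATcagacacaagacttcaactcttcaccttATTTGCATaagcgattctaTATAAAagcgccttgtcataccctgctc
H2BC21: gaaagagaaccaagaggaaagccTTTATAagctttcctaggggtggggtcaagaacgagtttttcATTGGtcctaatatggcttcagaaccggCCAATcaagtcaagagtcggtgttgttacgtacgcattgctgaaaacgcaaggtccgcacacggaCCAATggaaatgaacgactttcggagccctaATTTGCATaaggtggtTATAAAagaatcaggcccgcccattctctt
H2BC13: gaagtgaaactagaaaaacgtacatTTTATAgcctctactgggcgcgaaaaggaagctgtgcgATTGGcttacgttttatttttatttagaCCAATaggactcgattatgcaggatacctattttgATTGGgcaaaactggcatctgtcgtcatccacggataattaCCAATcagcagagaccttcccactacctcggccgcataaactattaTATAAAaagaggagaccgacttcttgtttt
H3C2: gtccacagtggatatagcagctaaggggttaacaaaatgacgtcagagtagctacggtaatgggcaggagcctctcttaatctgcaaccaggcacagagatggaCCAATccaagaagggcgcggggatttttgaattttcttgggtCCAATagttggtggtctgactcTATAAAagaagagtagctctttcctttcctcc

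In a global alignment the H2BC12 and H2BC11 stretches were identical at 202 of 251 columns (80.5%), while the H2BC12 and H2BC21 stretches were identical at 55.4%. Each of H2BC12, H2BC11 and H2BC21 held the octamer 46 or 47 bases before the start, and a TATA box 27 to 30 bases before it; the H2BC13 stretch held no octamer. Windows from 250 bases before to 50 after the start were found for 68 of the 77 member symbols looked up. A gene was counted when any of its windows held the motif on either strand. A TATA box was found for 66.2% of these member genes, against 14% of all 27305 genes with a window. The NF-Y motif was found for 83.8% of member genes and 39.7% of all. By class it was found for every one of the 16 H2A, 18 H2B and 12 H3 genes and for 3 of the 13 H4 genes. The octamer was found for 77.8% of H2B and 68.8% of H2A genes and for 8.33% of H3 genes. It was found for 0 of the 9 H1 and 13 H4 genes, and for 2.19% of all genes. In a head-to-head pair the 250 bases before each start take in the DNA shared with the neighbour. The same match can therefore be counted in both the H2A and the H2B window. These matches describe letters in the window and not binding.

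H2BC12, a replication-dependent H2B gene, spanned 3.62 log2 units over the 18 arrays, the widest range of the 73 tested features, ahead of H2BC21 (2.52) and H2BC11 (2.46). In pluripotent cells it read 10.24, 10.77 and 10.67 untransduced, 7.15, 7.22 and 7.38 with the control shRNA, and 8.10 and 7.86 with the KBTBD8 shRNA. In embryoid bodies it read 9.69, 9.85 and 10.12 untransduced, 8.5, 7.99 and 8.41 with the control shRNA, and 8.17 and 8.48 with the KBTBD8 shRNA. Every transduced array was therefore lower than every untransduced one, and the arrays read apart were too, at 8.16 and 7.98. H2BC12 fell by 3.31 ± 0.16 (SE) on the log2 scale, 9.89-fold lower, with the control shRNA in pluripotent cells (limma, adjusted p 1.6e-08), and by 1.59 ± 0.16 in embryoid bodies (adjusted p 1.5e-06). A probe set shared by H2BC5, H2BC12, H2BC12L and H2BC17 read 11.36, 11.51 and 11.35 untransduced and 11.06, 11.16 and 11.06 with the control shRNA in pluripotent cells, a fall of 0.31 ± 0.08 (adjusted p 0.00936).

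**Figure D1:**
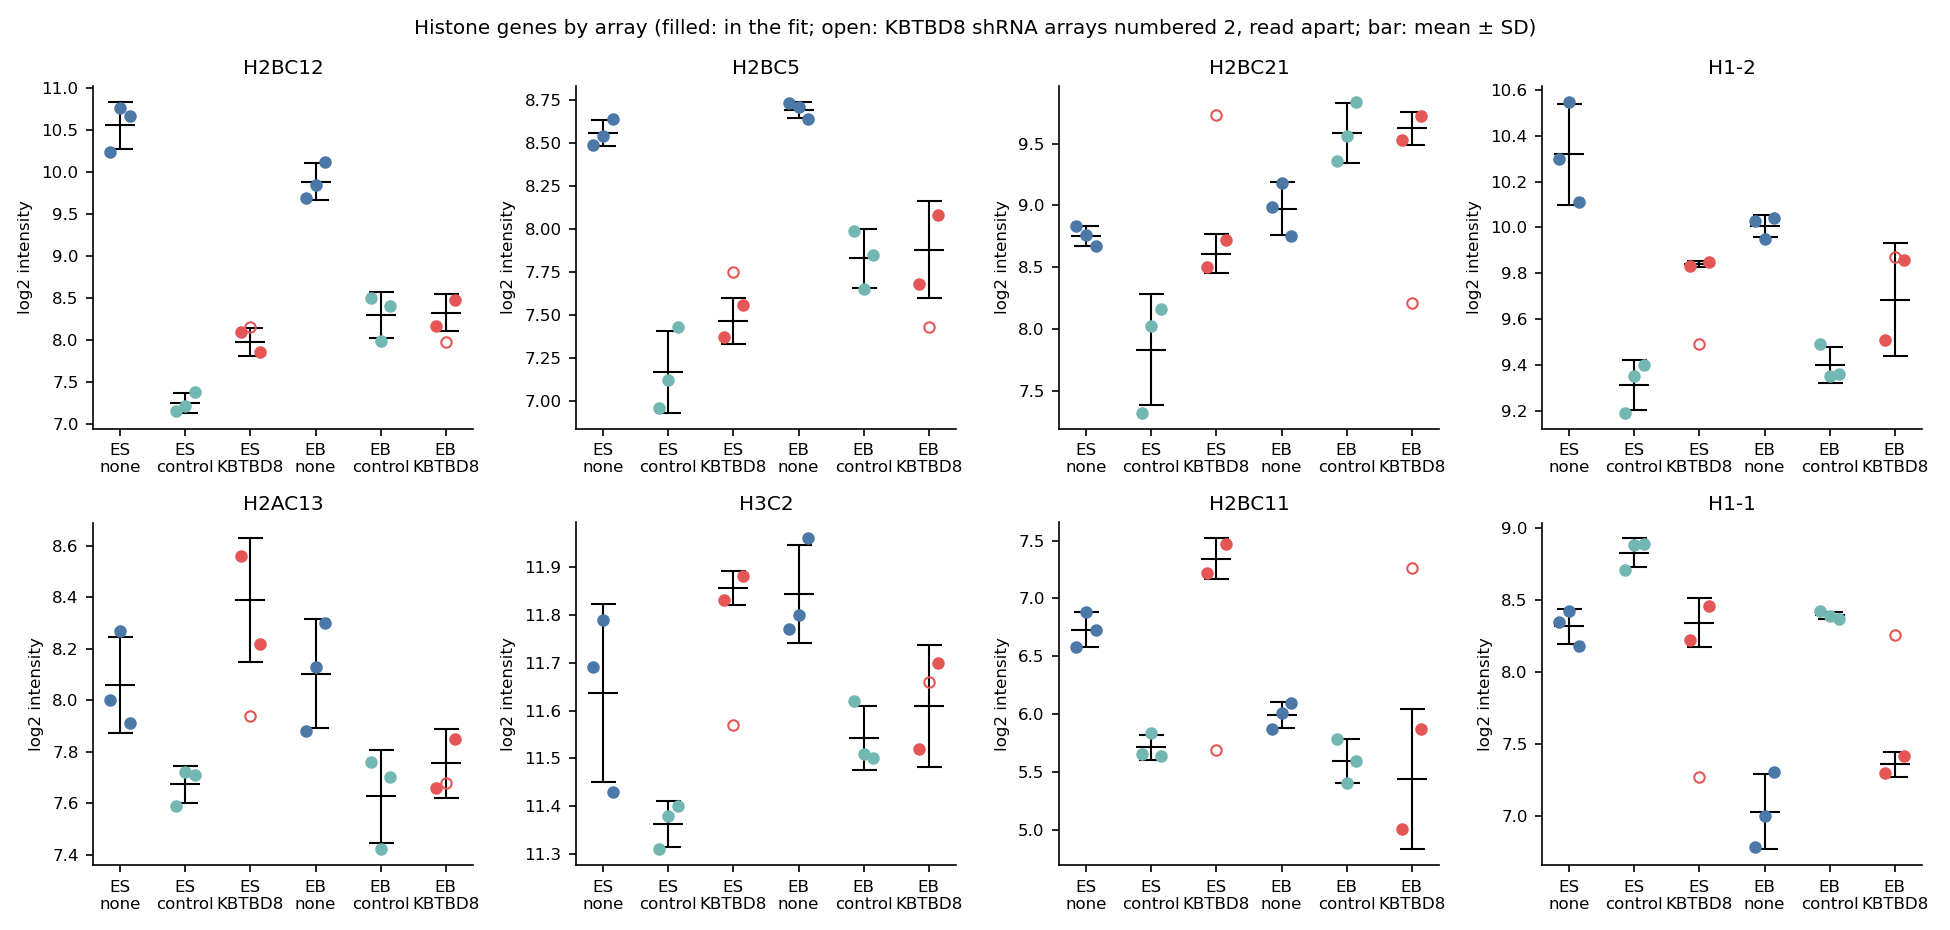
Log2 intensity of 8 histone genes on each of the 18 arrays, by state (ES, pluripotent; EB, embryoid bodies) and treatment (none, control shRNA, KBTBD8 shRNA). Filled points are the 16 arrays of the fit with mean and SD (n = 3, or n = 2 for the KBTBD8 shRNA), open points are the arrays read apart, and each panel has its own axis, which does not start at 0. H2BC12 is near 10.56 in untransduced pluripotent cells and near 7.25 with the control shRNA.

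In cells transduced with the control shRNA a larger share of histone features than of all features was lower. As said above, transduction and separate handling of these groups cannot be told apart. In pluripotent cells 25 of 73 were lower and 4 higher than untransduced (limma, adjusted p under 0.05), against 12.2% lower and 16.6% higher, 28.8% in all, over the 15339 features tested. The median log2 difference was −0.16 over the members and 0.04 over all features. By class, 7 of 20 H2B features fell and 1 rose, 6 of 14 H2A fell, 5 of 14 H4 fell, 4 of 13 H3 fell and 1 rose, 2 of 9 H1 fell and 1 rose, and of the 3 shared between classes 1 fell and 1 rose. With all 18 arrays under their labels 12 were lower and 1 higher, with 11.9% of all features called in either direction, and with only these 2 groups in the fit 19 were called. All 4 endoderm markers were higher in the same comparison, with a median of 0.99: TTR, a liver and yolk sac gene, read 4.91, 5.26 and 5.03 untransduced and 6.63, 6.27 and 6.97 with the control shRNA. SOX17, FOXA2 and AFP had means of 5.75, 5.87 and 5.87 with the control shRNA, where transduced array medians were 5.97 to 6.12. Other markers moved too: GDF3 (1.16), KDR (1.08), ZFP42 (0.55), DNMT3B (0.44), PAX3 (0.4), EOMES (0.39) and MIXL1 (0.38) were higher. OTX2 (−1.22), MAP2 (−0.72) and STMN2 (−0.59) were lower. The part of cell states in the histone differences was not tested, and in bulk RNA fewer cells of a type and less RNA per cell cannot be told apart.

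Among the largest falls beside H2BC12 was H2BC5, an H2B gene with described polyadenylated transcripts. It read 8.49, 8.54 and 8.64 untransduced and 6.96, 7.12 and 7.43 with the control shRNA, a fall of 1.39 ± 0.13 (adjusted p 6.3e-06) with no overlap. H1-2, a somatic linker histone, read 10.30, 10.55 and 10.11 against 9.19, 9.35 and 9.40, a fall of 1.01 ± 0.11 (adjusted p 3.3e-05). H3C7, an H3 gene, read 10.26, 10.54 and 10.14 against 9.32, 9.66 and 9.14, a fall of 0.94 ± 0.13 (adjusted p 0.00015). The H2A gene H2AC14 fell by 1.19 ± 0.22, H2BC11 by 1.01 ± 0.17, H2BC21 by 0.92 ± 0.18, H2AC17 by 0.69 ± 0.12 and H2BC4 by 0.58 ± 0.08. One probe set shared by H4C14 and H4C15 (set A) fell by 0.65 ± 0.14, and the other (set B) did not pass. The 4 that rose were H2BC3 by 0.67, the linker histone H1-1 by 0.51, a probe set shared by H2AC15 and H2BC15 by 0.38, and H3C8 by 0.37. H2BC3 passed the filter on low values on 7 of the 16 arrays. H3C8 lost its call without untransduced array 2 or 3 or any control shRNA array (adjusted p 0.0588 to 0.163), and the shared H2AC15 and H2BC15 set lost it without untransduced array 3 (0.102) or control shRNA array 2 (0.104).

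H2AC13 and H3C2 moved less. H2AC13 read 8.0, 8.27 and 7.91 untransduced and 7.59, 7.72 and 7.71 with the control shRNA in pluripotent cells, a fall of 0.39 ± 0.13 (adjusted p 0.0369); it lost the call without untransduced array 2 (adjusted p 0.144) or any of the control shRNA arrays (0.0645 to 0.104). H3C2, an H3 gene of the chromosome 6 cluster, read 11.69, 11.79 and 11.43 against 11.31, 11.38 and 11.40, a fall of 0.27 ± 0.09 (adjusted p 0.043) that it lost without untransduced array 1 (0.0991) or 2 (0.159) or any control shRNA array (0.07 to 0.113), and kept without untransduced array 3. The 5 members listed for described polyadenylated transcripts, H2BC5, H2BC4, H2AC6, H2BC21 and H1-2, all fell, where 12.2% of all features fell; their median was −0.92, against −0.16 over the 73 features and 0.04 over all. The list was chosen with earlier results of these data known, need not be complete, and was not compared with other members by any test. H2BC12 was not on it, and whether H2BC12 also gives polyadenylated transcripts was not examined here. H2AC6 read 11.65, 11.92 and 11.68 against 11.42, 11.60 and 11.37, a fall of 0.29 (adjusted p 0.027) that was lost without untransduced array 2 (0.111) or control shRNA array 1 (0.0737) or 3 (0.104). Of the 4 tested germline members 0 were called by limma, or at an unadjusted p under 0.05, and their median was −0.06.

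In embryoid bodies 29 of 73 histone features were lower and 9 higher with the control shRNA, against 20% and 24.4% of all features, 44.4% together; with each array centred on its median the split was 46 lower and 6 higher. The median member difference was −0.20, and −0.37 after centring, since the array medians were 5.85 to 5.95 on untransduced arrays and 5.97 to 6.12 on transduced ones. All 14 tested H2A features had differences of 0 or below, and 6 of them fell. H3C7 read 10.26, 10.51 and 10.46 untransduced and 9.18, 9.13 and 9.30 with the control shRNA, a fall of 1.21 ± 0.13 (adjusted p 2.6e-06). H2BC5 fell by 0.86 ± 0.13, H2BC4 by 0.67 ± 0.08, H1-2 by 0.61 ± 0.11 and the linker histone variant H1-10 by 0.54 ± 0.09. H2AC13 fell by 0.48 ± 0.13 (adjusted p 0.00787) and H3C2 by 0.30 ± 0.09 (adjusted p 0.0181; 0.0877 without untransduced array 3, 0.0568 and 0.0616 without control shRNA array 2 or 3). Of the 5 members listed for polyadenylated transcripts 3 fell and 1 rose. The one that rose was H2BC21, at 8.99, 9.18 and 8.75 untransduced and 9.36, 9.56 and 9.84 with the control shRNA, by 0.61 ± 0.18 (adjusted p 0.0125; 0.0641 without untransduced array 3, 0.0651 without control shRNA array 3). H1-1 also rose: it read 6.79, 7.0 and 7.31 untransduced and 8.42, 8.39 and 8.37 with the control shRNA, a rise of 1.35 ± 0.11 (adjusted p 2.3e-07). The other rises were 2 shared probe sets that hold H2BC18 (0.93 and 0.86), H2BC26 (0.62), H4C9 (0.62), H1-9P (0.55), H4C16 (0.50) and the germline linker histone H1-7 (0.31). Neural crest markers were higher in control shRNA embryoid bodies, 4 of 4 with a median difference of 4.26, and neural and eye field markers lower, 4 of 5 with a median of −0.97. Pluripotency markers were higher in 4 of 6 and lower in 1, with PODXL at 2.69, CRIPTO at 2.48, ZFP42 at 2.15 and SOX2 at −1.02. Endoderm markers were higher in 3 of 4 (AFP 3.71, TTR 2.94), and primitive streak and mesoderm markers in 3 of 4 (MEF2C 2.64). With the control shRNA TBXT, EOMES and MIXL1 had means of 5.5, 5.37 and 6.12, and SOX17 and FOXA2 of 5.63 and 5.85. These lay near or below the array medians, so the counts do not show such cells. Of 2 tested endothelium and blood markers KDR was higher by 2.22. The part of these cell states in the histone differences was not tested.

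**Figure D2:**
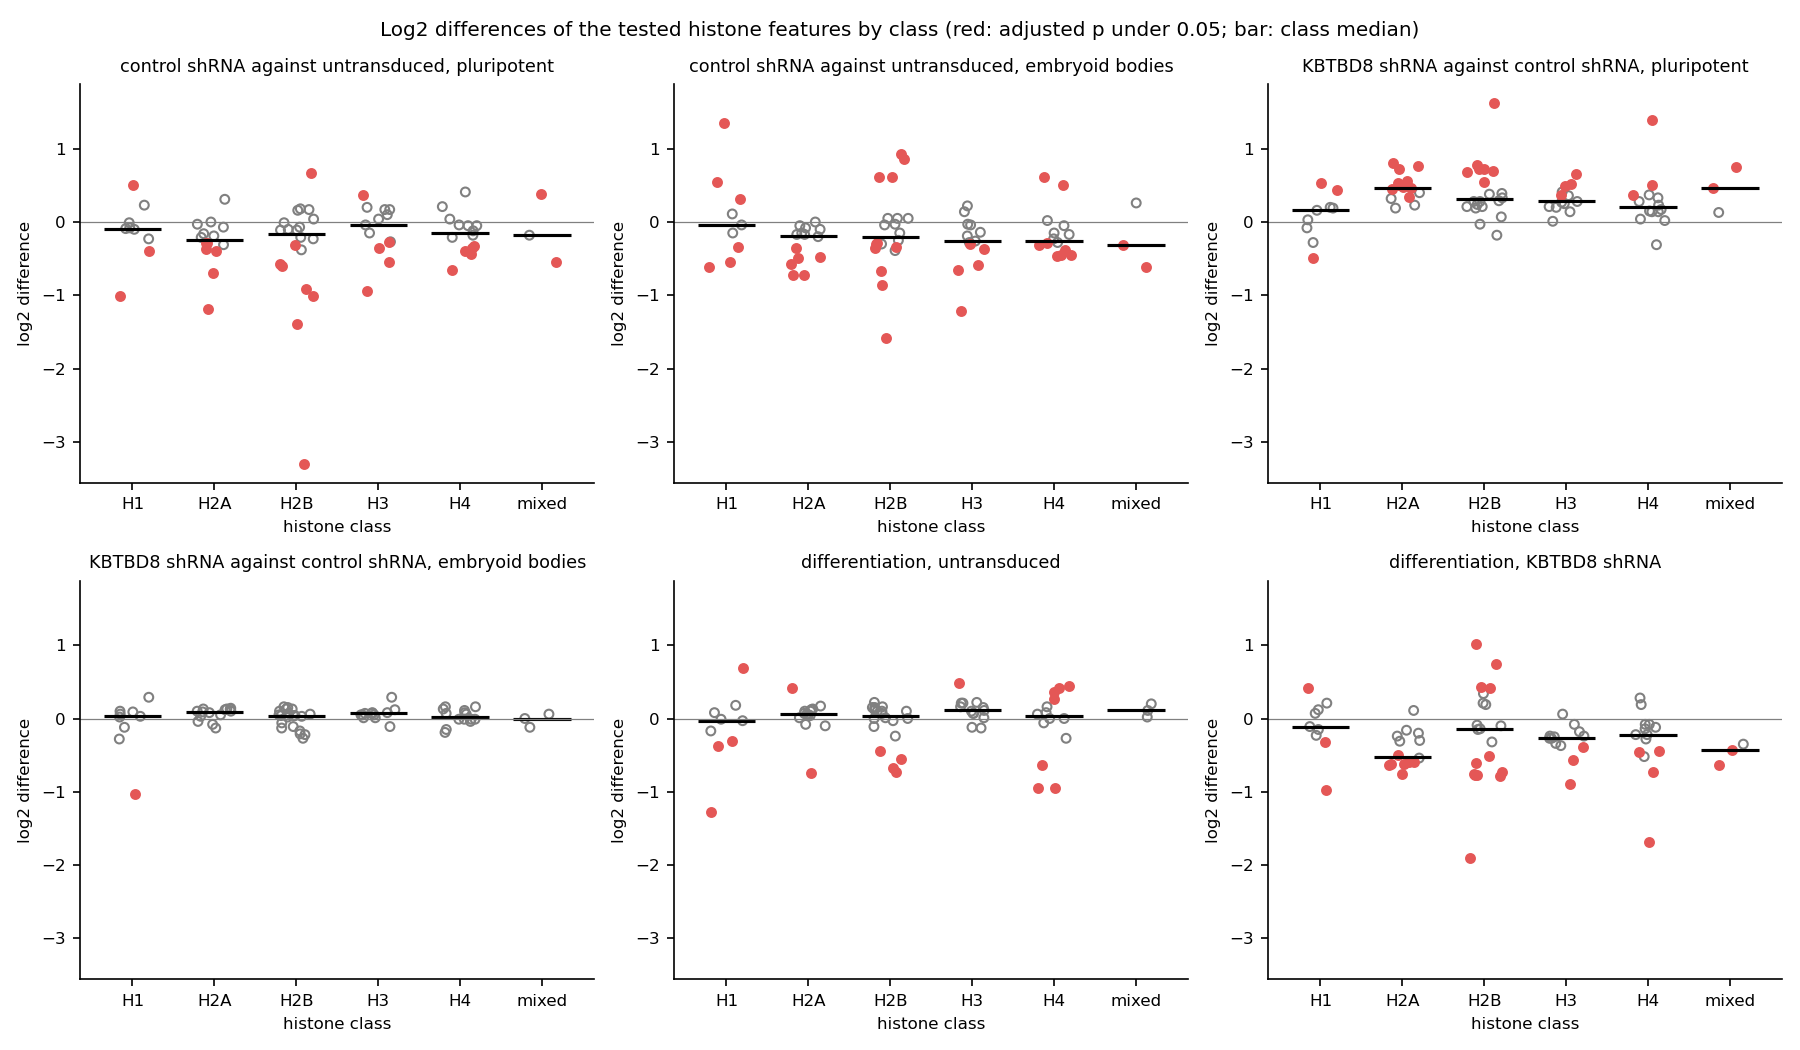
Log2 difference (y axis) of each tested histone feature by class (x axis) in 6 comparisons. Red points passed an adjusted p of 0.05, open points did not, and bars are class medians; in pluripotent cells 25 features lay lower with the control shRNA than untransduced, and 28 lay higher with the KBTBD8 shRNA than with the control shRNA.

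In pluripotent cells the KBTBD8 shRNA was accompanied by higher levels across the core histone classes than the control shRNA. Of 73 features 28 rose and 1 fell, against 8.22% higher and 5.46% lower, 13.7% together, over all features. The median difference was 0.32 over the members and −0.01 over all, and 67 of 73 differences were positive. By class 10 of 14 H2A, 7 of 20 H2B, 4 of 13 H3, 3 of 14 H4, 2 of 9 H1 and 2 of 3 features shared between classes rose, and 0 of 4 tested germline members did (limma, adjusted p under 0.05; at an unadjusted p under 0.05, 0 were higher and 1 lower). With all 18 arrays under their labels 9 rose and 0 fell, against 5.24% of all features called. Without control shRNA array 1 the call count was 19, and without KBTBD8 shRNA array 1 or array 3, which leaves a single array in that group, it was 12 in both cases. Endoderm markers were lower in 3 of 4, with a median of −0.59, and TTR read 5.31 and 5.23 with the KBTBD8 shRNA. STMN2 (−1.41), GDF3 (−0.83), OTX2 (−0.59), DNMT3B (−0.58) and PAX3 (−0.43) were also lower, and SOX2 (0.32) was higher. The part of cell states in the histone differences was not tested.

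The largest rise was in H2BC11. It read 5.66, 5.84 and 5.64 with the control shRNA and 7.22 and 7.47 with the KBTBD8 shRNA, with 6.58, 6.88 and 6.73 in untransduced cells. The rise was 1.63 ± 0.19, 3.10-fold (adjusted p 6.6e-05), and the array read apart was at 5.69. The H4C14 and H4C15 probe set A read 8.46, 8.5 and 8.43 against 9.76 and 9.95, a rise of 1.39 ± 0.16 (adjusted p 5.3e-05). With all 18 arrays both lost the call, at 1.08 (adjusted p 0.198) and 0.76 (adjusted p 0.406). Set B of H4C14 and H4C15 spanned only 0.74 over all 18 arrays, from 8.07 to 8.81.

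H2AC6, an H2A gene, read 11.42, 11.60 and 11.37 with the control shRNA and 12.22 and 12.26 with the KBTBD8 shRNA, a rise of 0.77 ± 0.10 (adjusted p 0.00015). H2AC13 read 7.59, 7.72 and 7.71 against 8.56 and 8.22, a rise of 0.72 ± 0.15 (adjusted p 0.00416; 0.0745 without KBTBD8 shRNA array 1). H3C2 read 11.31, 11.38 and 11.40 against 11.83 and 11.88, a rise of 0.49 ± 0.11 (adjusted p 0.00603; 0.0691 without KBTBD8 shRNA array 3). The 2 groups did not overlap in these 3 genes, which was also so in 52 of the 73 members and 45.4% of all features. H2BC12 rose by 0.73 ± 0.18 (adjusted p 0.0133; 0.125 without KBTBD8 shRNA array 1) while against untransduced cells its difference was still −2.58. H1-2 rose by 0.53 ± 0.12, a call lost without KBTBD8 shRNA array 1 (0.0573) or 3 (0.0867). Several larger rises lost the call when 1 array was left out. H2AC14 rose by 0.80 (adjusted p 0.0387; 0.347 without KBTBD8 shRNA array 3, 0.0587 to 0.108 without each control shRNA array). H2BC21 rose by 0.78 (0.0185; 0.0511 and 0.171 without KBTBD8 shRNA array 1 or 3). H2BC26 rose by 0.70 (0.0174; 0.058 and 0.149 without KBTBD8 shRNA array 1 or 3, 0.066 without control shRNA array 1). A probe set shared by H2AC7 and H3C4 rose by 0.75 (adjusted p 0.00116) and the H3 gene H3C12 by 0.66 (adjusted p 0.00448). H2BC5 differed by 0.29 (adjusted p 0.196) and H2BC4 by 0.28 (adjusted p 0.0512). H1-1 fell by 0.49 ± 0.13 (adjusted p 0.0194; 0.18 without KBTBD8 shRNA array 1, 0.059 and 0.0572 without control shRNA array 2 or 3).

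Against untransduced pluripotent cells, KBTBD8 shRNA cells had 24 higher and 6 lower histone features, with 16.8% and 11.3% over all features, 28.1% together. After centring each array on its median the split was 8 and 8, with all 18 arrays 13 were called, and without KBTBD8 shRNA array 1 or 3 there were 16 and 13 calls. The 6 lower ones were H2BC12, H2BC5, H3C7, H1-2, H2BC4 and the probe set shared by H3C6 and H3C11, which passed the filter on low values on only 3 of the 16 arrays and lay between 4.42 and 5.34 on all 18. This comparison shares its arrays with the others, so its values are set beside them only: H2BC5 was 1.10 lower and H1-2 0.48 lower than in untransduced cells, while H2BC3 was 0.88, H2BC26 0.87, H3C8 0.78 and H3C12 0.76 higher. H2AC13 differed by 0.33 (adjusted p 0.102) and H3C2 by 0.22 (adjusted p 0.132).

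**Figure D3:**
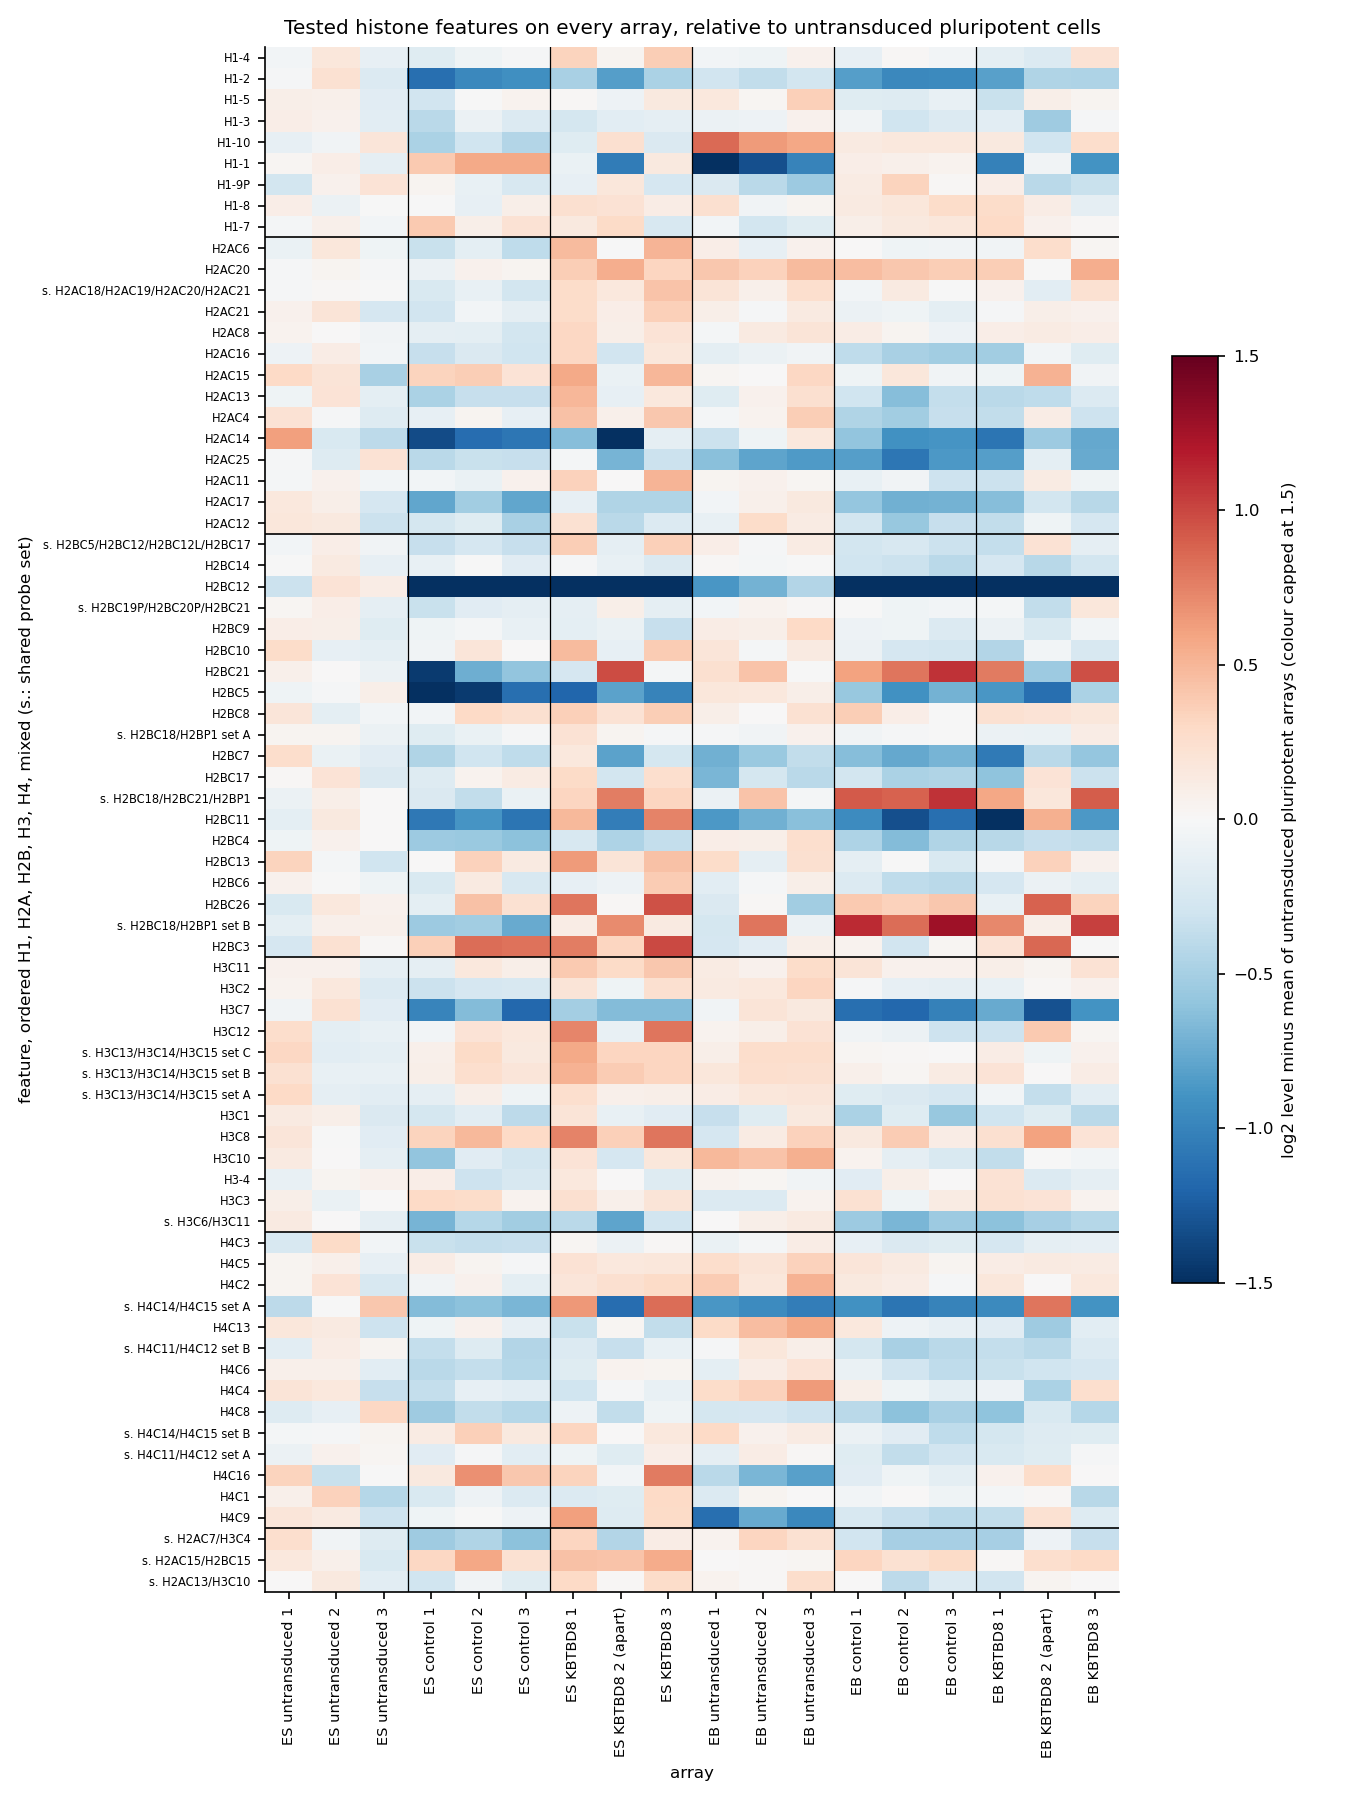
Level of each tested histone feature (rows, by class) on each of the 18 arrays (columns) minus the mean of the untransduced pluripotent arrays, in log2 units with the colour capped at 1.5. H2BC12 is low on all 12 transduced arrays, and each KBTBD8 shRNA array numbered 2 differs from the other 2 arrays of its label, as in H2BC11 and H1-1.

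In embryoid bodies 1 of 73 histone features differed between the KBTBD8 and the control shRNA: 0 rose and 1 fell (limma, adjusted p under 0.05), against 2.69% and 2.85% of all features, 5.53% together. At an unadjusted p under 0.05, 1 was higher and 1 lower; with all 18 arrays limma called 0, and 1 and 3 at the unadjusted p. H1-1 read 8.42, 8.39 and 8.37 with the control shRNA and 7.30 and 7.42 with the KBTBD8 shRNA, a fall of 1.03 ± 0.13 (adjusted p 8.7e-05). H2BC11 differed by −0.17 (adjusted p 0.797), H2AC13 by 0.13 (adjusted p 0.787), H3C2 by 0.07 (adjusted p 0.862) and H2BC12 by 0.02 (adjusted p 0.981). Between these groups AFP (−2.79), TTR (−2.60), SNAI2 (−2.52), MEF2C (−2.52), TFAP2B (−2.14), PAX3 (−1.95), SOX10 (−1.45), STMN2 (−1.44) and PAX6 (−0.55) were lower with the KBTBD8 shRNA. The neuron markers ELAVL4 (−0.74) and DCX (−0.72) were lower too. SIX3 (3.23), LHX2 (1.62), CRIPTO (1.35), SIX6 (0.70), GDF3 (0.69), SOX2 (0.63) and DNMT3B (0.43) were higher. The part of these cell states in the H1-1 difference was not tested. The effect of the KBTBD8 shRNA itself differed between the states in 11 of 73 features, with 0 more positive and 11 more negative in embryoid bodies, against 3.62% and 5.98% of all features, 9.61% together. The H2BC11 effects differed by −1.80 ± 0.27 (adjusted p 0.00057) and the H2AC6 effects by −0.75 ± 0.14 (adjusted p 0.00359), while those of H2AC13 differed by −0.59 (adjusted p 0.089) and those of H3C2 by −0.42 (adjusted p 0.0916). With all 18 arrays 1 feature passed that test, and leaving out pluripotent control array 1, KBTBD8 array 1 or KBTBD8 array 3 left 7, 6 and 5, and leaving out embryoid body control array 1 or KBTBD8 array 1 left 6 and 4. Against untransduced embryoid bodies 20 features were lower and 6 higher with the KBTBD8 shRNA, with 18.2% and 22.2% over all, 40.4% together, and 36 and 4 after median centring; without KBTBD8 shRNA array 1 there were 12 calls. H2BC12 was 1.56 lower and H3C7 0.92 lower. In the same comparison pluripotency markers were higher in 5 of 6 and lower in 1 (CRIPTO 3.82, PODXL 2.90, ZFP42 2.10), neural crest markers higher in 4 of 4 (TFAP2B 2.81, PAX3 2.60), KDR higher by 2.20, and neural and eye field markers lower in 3 of 5 and higher in 1 (LHX2 −1.34, PAX6 −1.26). The part of these cells in the histone differences was not tested.

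Differentiation of untransduced cells changed fewer histone features than features at large: 7 rose and 11 fell of 73, which is 24.66%, against 26% and 25.8% of all features, 51.8% together. H1-1 fell from 8.35, 8.42 and 8.18 to 6.79, 7.0 and 7.31, by 1.28 ± 0.11 (adjusted p 1.5e-07). The H4C14 and H4C15 probe set A read 8.72, 9.10 and 9.51 in pluripotent cells and 8.24, 8.17 and 8.07 in embryoid bodies, a fall of 0.95 ± 0.14 (adjusted p 3.1e-05). H1-10, a replication-independent linker histone, rose from 8.20, 8.27 and 8.51 to 9.18, 8.97 and 8.91, by 0.69 ± 0.09 (adjusted p 1.3e-05). H2BC12 fell by 0.67 ± 0.16 (adjusted p 0.0022). Other falls were H4C9 (0.95), H2AC25 (0.75), H2BC11 (0.73), H4C16 (0.64), H2BC7 (0.55), H2BC17 (0.45), H1-9P (0.38) and H1-2 (0.31). H4 genes went both ways, with 3 falls and 4 rises: H4C13 by 0.44, H4C4 by 0.41, H4C2 by 0.36 and H4C5 by 0.27. The H4C2 and H4C4 calls were lost without array 3 of either state (adjusted p 0.0823 to 0.141), and the H1-2 call without array 2 of either (0.0819 and 0.148). H2AC13 differed by 0.05 (adjusted p 0.791) and H3C2 by 0.21 (adjusted p 0.079).

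With the control shRNA, differentiation raised 10 and lowered 9 of 73 histone features, against 23.7% and 24.6% of all, 48.3% together; with all 18 arrays 12 were called. H2BC21, an H2B gene on chromosome 1 with described polyadenylated transcripts, rose most. It read 7.32, 8.02 and 8.16 in pluripotent cells and 9.36, 9.56 and 9.84 in embryoid bodies, a rise of 1.75 ± 0.18, 3.37-fold (adjusted p 9e-07), and 2 probe sets shared by H2BC18 with H2BP1 or H2BC21 rose as well, by 1.69 and 1.19. Untransduced cells read 8.83, 8.76 and 8.67 and then 8.99, 9.18 and 8.75, a difference of 0.22 (adjusted p 0.336). The difference between these 2 changes was 1.54 ± 0.26 (adjusted p 0.00057). Other shared probe sets moved little. The one shared by H2BC19P, H2BC20P and H2BC21 spanned 0.54 over all 18 arrays (10.15 to 10.69). Set A of H2BC18 and H2BP1 spanned 0.4 (7.83 to 8.23). H2BC12 rose by 1.05 ± 0.16 with the control shRNA, 1.72 ± 0.22 more than in untransduced cells (adjusted p 6.4e-05). H2BC5 rose by 0.66 ± 0.13, H1-10 by 0.55 ± 0.09 and H2AC20 by 0.40 ± 0.08. The largest falls were in H2BC3 (0.73), H2AC25 (0.56), H4C16 (0.55) and H1-1 (0.44). Of the 13 tested H3 features 0 were called, and 0 at an unadjusted p under 0.05, with H3C2 at 0.18 (adjusted p 0.136), and H2AC13 differed by −0.05 (limma, adjusted p 0.8). In all, differentiation differed between control shRNA and untransduced cells in 7 features upward and 2 downward, against 8.01% and 8.14% of all features, 16.1% together. That count was 16 without untransduced pluripotent array 1, 6 without embryoid body control shRNA array 1 and 4 with all 18 arrays.

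With the KBTBD8 shRNA, differentiation lowered 26 and raised 5 histone features, against 20.5% and 17.8% of all, 38.3% together, with a median of −0.27 against 0.01. H2BC11 went from 7.22 and 7.47 to 5.01 and 5.87, a fall of 1.91 ± 0.21 (adjusted p 2.5e-06). Its embryoid body values lay below the medians of those arrays (6.1 and 6.02). The H4C14 and H4C15 probe set A went from 9.76 and 9.95 to 8.15 and 8.21, a fall of 1.68 ± 0.17 (adjusted p 1.3e-06). Set B of these genes differed by −0.46. H2AC13 fell by 0.64 ± 0.16 (adjusted p 0.00502; 0.0749 without pluripotent array 1, 0.0535 without embryoid body array 1), and H3C2 differed by −0.24 (adjusted p 0.112). H2BC21 rose by 1.02 ± 0.22 and H1-10 by 0.41 ± 0.11, the latter lost without array 3 of either state (adjusted p 0.0593 and 0.0763). H2BC12 differed by 0.34 (adjusted p 0.184). By class 7 of 14 H2A, 8 of 20 H2B, 3 of 13 H3, 4 of 14 H4 and 2 of 9 H1 features fell. Without pluripotent KBTBD8 shRNA array 3 there were 20 calls. The arrays numbered 2 gave the opposite sign in 28 of these 31 (90.32%) and in 96.32% of all 5868 features called; with all 18 arrays limma called 0 features, members or not, and 826 features passed an unadjusted p under 0.05, of which 17 were members, all lower in embryoid bodies.

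The values of neighbouring H2A and H2B genes are given side by side; the difference between the partners was not tested. Both genes were tested in 9 pairs, and in 8 their starts lay 229 to 247 bases apart and ran apart. For H2AC12, neighbour of H2BC12, no promoter window was matched. Its start was taken from the RefSeq gene record, and the H2BC12 stretch of 247 bases printed above fills the gap to it. In pluripotent cells with the control shRNA 1 pair fell together, H2BC4 and H2AC6. H2BC12 fell by 3.31 while H2AC12 differed by −0.31 and did not pass; it read 6.34, 6.31 and 5.85 untransduced and 5.90, 5.98 and 5.68 with the control shRNA. H2BC21 fell by 0.92 while H2AC20 differed by 0.00, and H2BC11 fell by 1.01 while H2AC11 differed by −0.03. In 4 other pairs the H2A gene passed the test and the H2B gene did not, as in H2AC14 (−1.19) beside H2BC14 (−0.10) and H2AC17 (−0.69) beside H2BC17 (−0.01). In embryoid bodies with the control shRNA 2 pairs fell together, H2BC12 (1.59) with H2AC12 (0.49) and H2BC14 (0.34) with H2AC14 (0.72). With the KBTBD8 shRNA against the control shRNA in pluripotent cells 2 pairs rose together, H2BC11 with H2AC11 and H2BC21 with H2AC20.

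**Figure D4:**
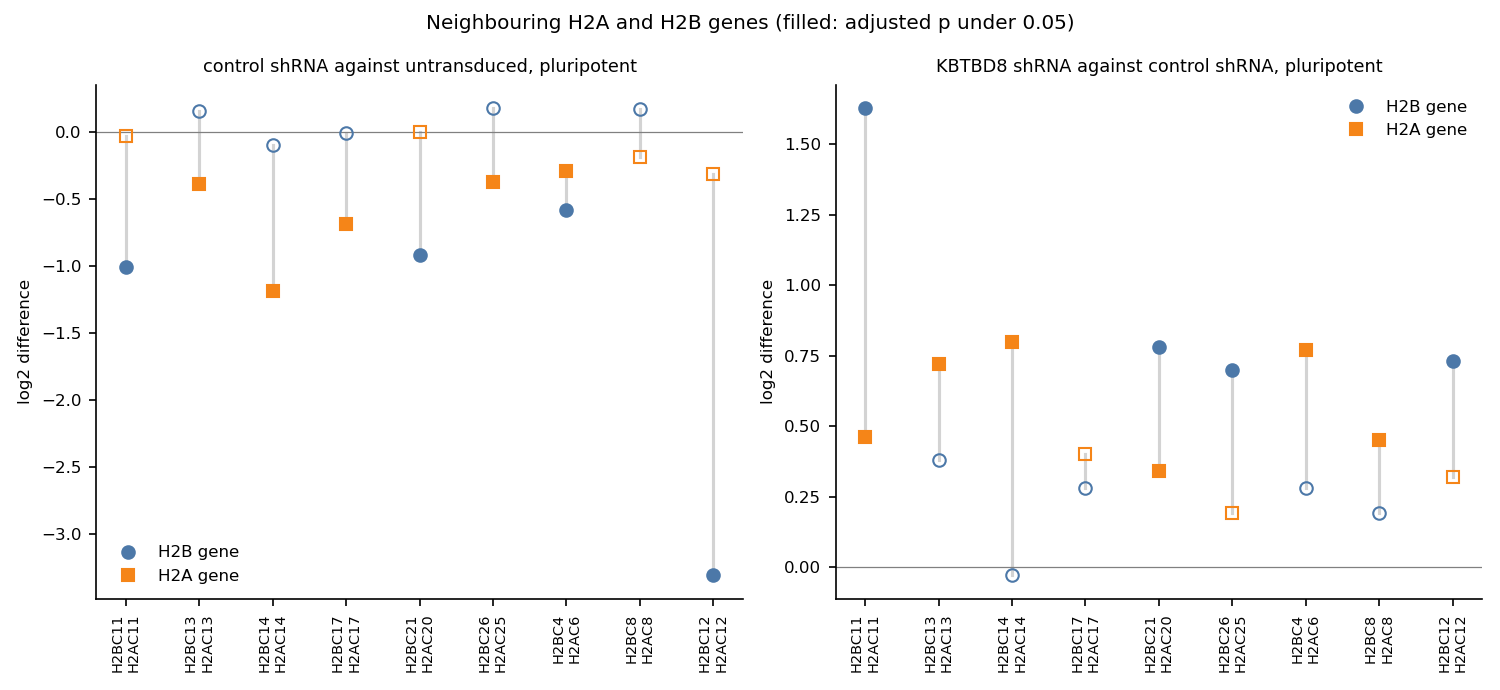
Log2 difference (y axis) of the H2B gene (circle) and the H2A gene (square) of 9 neighbouring pairs (x axis) in pluripotent cells. Filled symbols passed an adjusted p of 0.05. With the control shRNA H2BC12 lies at −3.31 and H2AC12, whose levels were near the array medians, at −0.31.

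Genes that act around histone supply were counted in the same fit. Of 27 tested S phase and DNA replication genes, 0 rose and 7 fell with the KBTBD8 shRNA against the control shRNA in pluripotent cells, with a median of −0.20 (limma, adjusted p under 0.05), against 8.22% higher and 5.46% lower over all features. RRM2, the ribonucleotide reductase subunit, fell by 1.32 and PCNA, the sliding clamp, by 0.75. With the control shRNA against untransduced pluripotent cells 11 rose and 2 fell, among them the helicase subunits MCM7 (1.04) and MCM5 (0.72), against 16.6% higher and 12.2% lower over all features. In embryoid bodies 0 rose and 12 fell in that comparison, PCNA by 1.01, against 24.4% higher and 20% lower over all. During differentiation with the control shRNA 19 fell and 2 rose, against 24.6% lower and 23.7% higher over all.

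Of 18 genes for histone gene transcription and mRNA processing, 2 rose and 0 fell with the KBTBD8 shRNA in pluripotent cells: ZNF473, a U7 snRNP-associated factor of 3′ end cleavage, by 0.51, and CPSF2, a cleavage complex subunit, by 0.32. That count is near the share of all features that rose (8.22%). With the control shRNA against untransduced pluripotent cells 4 rose and 0 fell, where 16.6% of all features rose and 12.2% fell. In embryoid bodies 2 rose and 6 fell, where 24.4% of all features rose and 20% fell, among them CASP8AP2 by 0.60 and NPAT, the coactivator of histone transcription, by 0.28. Of 19 histone chaperones 3 fell and 1 rose with the KBTBD8 shRNA against the control shRNA in pluripotent cells, where 5.46% of all features fell and 8.22% rose; NASP, an H3-H4 chaperone, fell by 0.45. With the control shRNA against untransduced pluripotent cells HIRA (0.62), DAXX (0.52), TONSL (0.49), CHAF1A (0.47), IPO4 (0.45), CHAF1B (0.35) and SUPT16H (0.24) rose. HJURP (−0.23) fell there, where 16.6% of all features rose and 12.2% fell. Replication-independent variants rose during differentiation of untransduced cells in 6 of 8 tested, where 26% of all features rose, MACROH2A2 by 2.15 and H3-3B, an H3.3 gene, by 0.61. During differentiation with the control shRNA H2AJ (−0.88) and MACROH2A1 (−0.25) fell. MACROH2A2 (1.66), H3-5 (0.54), H3-3B (0.53) and H2AZ2 (0.46) rose.

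**Figure D5:**
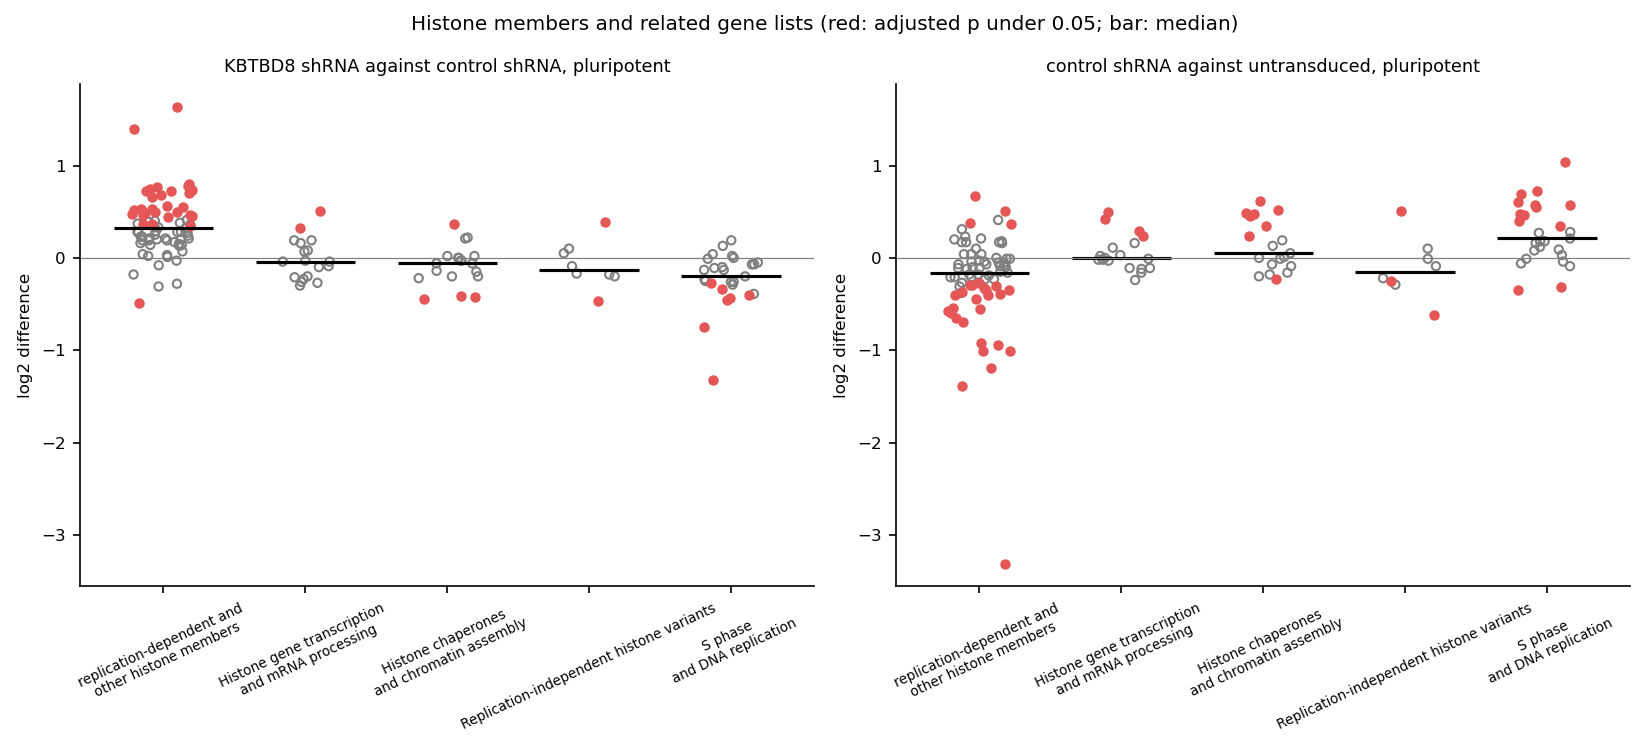
Log2 difference (y axis) of the 73 tested histone features and of the genes of 4 related lists (x axis) in pluripotent cells. Red points passed an adjusted p of 0.05 and bars are medians; with the KBTBD8 shRNA against the control shRNA the histone median is 0.32 and the S phase median −0.20.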

How the data were processed

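The authors deposited log2 intensities, normalized with GCRMA per the submitters' processing notes; its version and whether all arrays were normalized together are not given in the sources used here, and the log base was inferred from the range of the values. RNA was labelled by a NuGEN protocol per the labels, which do not give the priming; this bears on transcripts without a poly(A) tail. Of 33297 probe sets, 19461 had 1 gene symbol, 1753 several and 12083 none. A gene was read by its single-symbol probe set with the highest mean; each probe set with several symbols was kept as a shared feature, and probe sets with identical values on all arrays were merged (83 member features became 79). A feature was tested (15339 were) when 3 or more of the 16 arrays put it over their own 40th percentile. H1-10-AS1 matched the letters of the rule but is an antisense RNA and was left out. A total of 6 members passed on fewer than 16 arrays, from 3 (the probe set shared by H3C6 and H3C11) to 15.

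Limma 3.58.1 in R 4.3.3 fitted 6 group means over 16 arrays (residual df 10, prior df 5.47), with Benjamini-Hochberg adjustment over all tested features in each of 11 comparisons and a threshold of 0.05; it was tested on simulated data. The number of arrays limits the precision. Named were H2BC12, H2AC13, H3C2, members with described polyadenylated transcripts, H1-10, and up to 10 rises and 10 falls per comparison. The members and lists were chosen with earlier results of these data known. Alternatives were all 18 arrays, only the groups compared, a replicate block, other filters and scalings, the mean of probe sets, limma-trend and leaving out each array.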

Additional observations from a re-analysis of the deposited data

Results flagged for a closer look

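Several members changed by different amounts in groups under the same contrast, by the interaction term of the fit (limma, adjusted p under 0.05). The change during differentiation, control shRNA minus untransduced, differed upward by 1.72 in H2BC12, 1.54 in H2BC21, 1.54 in a probe set shared by H2BC18 and H2BP1 (set B), 1.09 in the probe set shared by H2BC18, H2BC21 and H2BP1, 0.84 in H1-1, 0.67 in H4C9 and 0.65 in H1-9P. It differed by −0.58 in the H4C14 and H4C15 probe set B and by −0.50 in H2AC4. Of the features named here, the 3 that carry H2BC21 or H2BC18 may read the same transcripts, so they are not separate evidence.

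The effect of the KBTBD8 shRNA against the control shRNA, embryoid bodies minus pluripotent, differed by −1.80 in H2BC11, −1.32 in the H4C14 and H4C15 probe set A, −0.97 in H2BC26, −0.76 in the probe set shared by H2BC18, H2BC21 and H2BP1, −0.75 in H2AC6, −0.75 in the probe set shared by H2AC7 and H3C4, −0.65 in H3C12, −0.64 in the probe set shared by H2BC5, H2BC12, H2BC12L and H2BC17, −0.63 in H3C10, −0.49 in H2AC11 and −0.44 in the probe set shared by H2AC18, H2AC19, H2AC20 and H2AC21. KBTBD8 read 6.39, 7.09 and 7.03 in pluripotent control shRNA cells and 4.43, 4.79 and 5.04 in control shRNA embryoid bodies; the part of this level in the difference was not tested.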

How the results depend on the processing

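With all 18 arrays under their labels the members called were 12 in control shRNA differentiation, 0 in KBTBD8 shRNA differentiation, 13 for control shRNA against untransduced pluripotent cells, 9 and 0 for KBTBD8 against control shRNA in pluripotent cells and embryoid bodies, 13 for KBTBD8 shRNA against untransduced pluripotent cells, 4 for the difference in differentiation and 1 for the difference in KBTBD8 shRNA effect. H2BC11 then turned from −0.56 to 0.05 (adjusted p 0.947) for KBTBD8 shRNA against untransduced embryoid bodies. Fitting only the groups compared gave 19 calls for control shRNA and 12 for KBTBD8 shRNA against untransduced pluripotent cells. Median centring gave 16 and 40 for KBTBD8 shRNA against untransduced pluripotent cells and embryoid bodies. The difference in KBTBD8 shRNA effect gave 7 calls with no filter, 7 with centring and 18 with limma-trend. Leaving out single arrays gave 20 to 25 calls in KBTBD8 shRNA differentiation, 12 to 26 for KBTBD8 against control shRNA and 13 to 29 for KBTBD8 shRNA against untransduced in pluripotent cells, 12 to 26 for the latter in embryoid bodies, 6 to 16 for the difference in differentiation and 4 to 12 for the difference in KBTBD8 shRNA effect. A group left with 1 array was assumed to vary like the others. The cause of these shifts was not tested.

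Over all groups, samples with the same number did not deviate together (36 pairs, correlations −0.38 to 0.43, median 0.03, 11 over 0.1), so the numbers were not taken to pair them. Among the pluripotent control shRNA and both KBTBD8 shRNA groups the 6 same-numbered pairs (arrays 1 and 3) correlated at 0.32 to 0.43; deviations in a group of 2 arrays mirror each other, so these are not 6 separate values. With the replicate number as a block the 11 comparisons gave 18, 18, 30, 26, 37, 28, 1, 28, 27, 9 and 8 calls, in the order untransduced, control and KBTBD8 shRNA differentiation, control shRNA against untransduced, KBTBD8 against control shRNA and KBTBD8 shRNA against untransduced (each in pluripotent cells, then embryoid bodies), and the differences in differentiation and in KBTBD8 shRNA effect.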
